A study of Mus musculus with 18 samples.

Results

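The response to LY294002 at day 5 was examined in mouse embryonic stem cells (ESCs) that overexpress c-Myc, in 4 of the 18 arrays of the series. The 4 samples were chosen by their labels: EBRTcH3 ESCs overexpressing wild-type c-Myc and EBRTcH3 ESCs overexpressing c-Myc T58A, each with 1 untreated sample and 1 sample treated with LY294002 for 5 days. All were male ESCs of the 129SV background in medium with LIF and serum. The day 2 samples of the same lines were not used. Parental EBRTcH3 ESCs in the same medium, without an introduced cDNA, gave 2 further untreated and day 5 pairs, called parental pairs 1 and 2 below. EBRTcH3 ESCs are a line built for tetracycline-regulated expression of an inserted cDNA, and the promoter used for c-Myc and the number of clones per line were not given in the sources used here. For the T58A line the untreated sample has a description that names N-Myc for the treated samples, so the construct of its day 5 sample rests on that sample's own title and genotype. Each value is a log2 level from 1 array, a change is day 5 minus untreated on the log2 scale, and 2-fold equals 1 on that scale.

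LY294002 blocks phosphoinositide 3-kinase (PI3K), which makes a membrane lipid that recruits the kinase Akt. Akt restrains FOXO transcription factors and the kinase GSK3 and feeds growth signals to mTORC1, and LY294002 is also known to inhibit mTOR and Pim kinases. In ESCs PI3K signalling is known to help sustain the naive state with LIF. c-Myc is a transcription factor that binds E-boxes with its partner Max, and GSK3 phosphorylates it at threonine 58, which marks it for degradation. The T58A mutant lacks that threonine and is more stable. The comparison asks how ESCs that carry extra c-Myc alter their RNA when PI3K is inhibited.

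All 10 ESC markers examined, Pou5f1, Sox2 and Nanog among them, lay above the level filter of 4.64 in each of the 4 samples, with set means of 12.33 to 12.41. The 16 markers of fibroblast feeder cells had set means of 4.59 to 4.84, and 6 to 10 of them lay above the filter. Of these, Col1a1, Col3a1, Col6a1, Lum, Postn and Twist2 lay below it in all 4 samples, while Col1a2, Col6a2, Thy1, Acta2, Tagln and Mmp2 lay above it in all 4. Set means lay between 4.34 and 4.68 for 6 primitive endoderm markers, between 4.73 and 5.15 for 5 trophoblast markers and between 4.89 and 5.11 for 4 mesendoderm markers. The 4 neuroectoderm markers had the highest means outside the ESC set, 6.94 and 6.84 untreated and 6.04 and 6.03 at day 5, with 4 above the filter untreated and 3 at day 5. The part of these markers in the results was not tested. The arrays of parental pair 1 had medians of 5.03 to 5.05, against 5.31 to 5.37 in the other 6 arrays used, and its values carry more decimals, so pair 1 appears to come from a separate run of normalization. No label states such runs. In bulk arrays fewer cells of a type and less RNA per cell cannot be told apart. Nothing in the labels says that samples came from separate cultures, so each p-value measures only the spread between these arrays, whose number limits the precision.

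LY294002 changed RNA levels in nearly the same way in both c-Myc lines. Over 13404 genes tested, the change in the wild-type line and that in the T58A line correlated at Pearson's r = 0.914 and Spearman's rho = 0.839, a description across genes, which are not independent and share these 4 arrays. The change of a gene differed between the lines by a median of 0.127, and 29 genes had a gap of at least 1. Between parental pairs 1 and 2 the same r was 0.42, the median gap 0.314 and the number with a gap of at least 1 was 1239. Pair 1 appears to come from a separate normalization run, and the part of this in the lower agreement was not tested. The comparison is not read as setting the c-Myc lines apart. Levels in the wild-type line correlated with pair 2 at 0.992 untreated and 0.991 at day 5. With pair 1 these were 0.954 and 0.970. A change of at least 2-fold was found for 988 genes in the wild-type line (7.37%), 547 higher (4.08%) and 441 lower (3.29%). In the T58A line it was found for 804 (6.0%), 405 higher (3.02%) and 399 lower (2.98%). Of these, 677 genes (5.05% of those tested) had it in both lines, 354 higher (2.64%) and 323 lower (2.41%). None of the genes past 2-fold in 1 line had the opposite sign in the other.

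**Figure D1:**
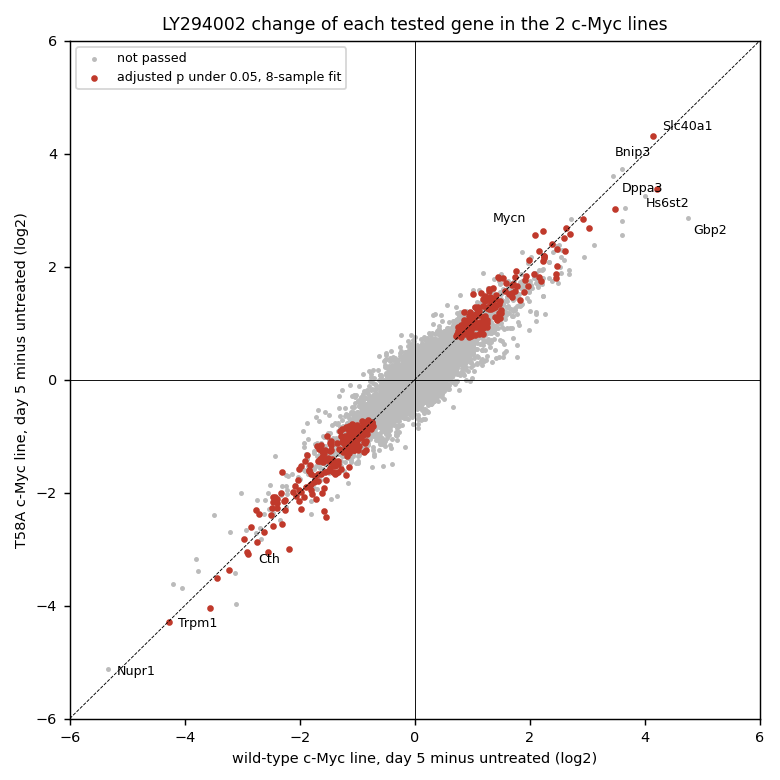
Each point is 1 of 13404 genes, with its log2 change at day 5 of LY294002 in the wild-type c-Myc line on the x axis and in the T58A c-Myc line on the y axis. Red points passed the 8-sample fit and the dashed line marks equal changes. Points lie along that line (r = 0.914), with Slc40a1 and Trpm1 near the ends and Nupr1, which did not pass, at the far lower left.

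The mean change over the 2 lines was tested with limma in 2 ways. The main test, here the 8-sample fit, took the spread from both c-Myc lines and both parental pairs with the pair as a block, and called 351 genes (2.62%), 146 higher (1.09%) and 205 lower (1.53%), at an adjusted p under 0.05. The 4-sample fit took the spread from the c-Myc lines alone, with 1 residual degree of freedom per gene, and called 5505 (41.1%), 3138 higher (23.4%) and 2367 lower (17.7%). All 351 genes of the first fit were among those of the second. The 8-sample fit favours genes whose parental pairs changed alike, since a gap between these pairs enlarges the error of every gene it touches. Its smallest adjusted p was 0.031, a value that many genes share, and 3800 genes had an unadjusted p under 0.05. "Rose" and "fell" below refer to the 8-sample fit, and counts from the 4-sample fit are given as called higher or lower. List counts below are to be read beside the shares of all genes. These were 2.62% in the 8-sample fit, and 23.4% higher and 17.7% lower in the 4-sample fit. Of all 13404 genes tested, 6145 were above 0 in both lines and 4701 were below 0 in both. Where treated and untreated samples are said to lie apart, this largely follows from choosing genes with large changes in both lines. It is a description, and its share over all genes was not counted.

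Of the 351 genes, 273 changed at least 2-fold on average over the lines, 111 higher and 162 lower. The 146 genes that rose had median changes of 1.256 in the wild-type and 1.248 in the T58A line, against 0.731 and 0.941 in parental pairs 1 and 2. The 205 that fell had medians of -1.295 and -1.244, against -0.945 and -1.16. Of those that rose, 143 were above 0 in both parental pairs, and of those that fell, 202 were below 0 in both. Because of how the 8-sample fit weighs the parental pairs, this agreement is partly set by the fit and is given as a description.

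The largest rise was that of Slc40a1, the gene for ferroportin, which exports iron from cells (chromosome 1, 45908070 to 45926532 in GRCm38.p6). It read 4.75 untreated and 8.90 at day 5 in the wild-type line and 4.35 and 8.67 in the T58A line. Both day 5 samples lay far above both untreated samples, a change of 4.24 ± 0.26 (SE, n = 2 lines), or 18.8-fold (adjusted p = 0.031). Here and below ± is the standard error of the 8-sample fit, whose spread includes the parental pairs. It is not the spread between the c-Myc lines, which for Slc40a1 changed by 4.15 and 4.32. The other Slc40a1 probe set above the filter differed by 2.96. The untreated levels lay near or below the level filter, so the size of the fold and its rank rest on low values and on 1 probe set. Hs6st2, which encodes a sulfotransferase of heparan sulfate, went from 4.55 to 8.76 and from 4.96 to 8.34. The groups again did not overlap, and the change was 3.79 ± 0.23 (adjusted p = 0.031), against 2.20 for its other probe set above the filter. Its untreated levels were near the filter too. Pim2, a kinase gene linked to cell survival and translation, read 6.86 and 6.58 untreated and 10.34 and 9.59 at day 5. Both treated values were higher than both untreated ones, and the change was 3.25 ± 0.21 (adjusted p = 0.031).

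Next came genes of membrane transport, adhesion and transcription. The potassium channel gene Kcnk1 rose by 2.85 (6.39 to 9.41 and 6.40 to 9.08), and the flippase gene Atp10a by 2.64 (5.19 to 7.88 and 5.13 to 7.72). Tmem54, which started below the level filter at 3.57 and 3.61, reached 6.17 and 6.12. Itga1, the integrin alpha 1 gene, started below the filter too, at 3.88 and 4.13, and rose by 2.44 ± 0.13 to 6.49 and 6.41. Lef1, a transcription factor of the Wnt pathway, rose by 2.66 ± 0.29 (5.83 to 8.47 and 5.59 to 8.28). Grhl2, a transcription factor of epithelial cells, rose by 2.22 ± 0.12 (7.43 to 9.68 and 7.30 to 9.49), although 1 of its 4 probe sets differed by -0.03. The imprinted gene Peg10 rose by 2.25 ± 0.15, from 4.66 to 7.14 and from 4.50 to 6.51. In each of these genes the 2 day 5 samples lay above the 2 untreated samples. The uncharacterised 2610528J11Rik and Gm16136 completed the 15 largest rises with Gbx2, Myc and Mycn, which are described below.

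The largest fall was that of Trpm1, a cation channel gene on chromosome 7 (64153835 to 64269772 in GRCm38.p6). It read 9.32 and 9.69 in the untreated wild-type and T58A samples and 5.05 and 5.40 at day 5. The groups were well apart, and Trpm1 fell by 4.28 ± 0.19 on the log2 scale, or 19.4-fold (adjusted p = 0.031). Only 1 other of its 4 probe sets lay above the level filter, and that one differed by -0.13, so the fall rests on 1 probe set. B4galnt2, a glycosyltransferase gene, went from 8.21 to 4.65 and from 7.95 to 3.91, and Serpinb6c, of the serine protease inhibitor family, from 7.79 to 4.34 and from 7.87 to 4.37. Of these day 5 values only the 4.65 of B4galnt2 reached the level filter, so the folds of 13.9 and 11.1 rest on low treated levels. The other B4galnt2 probe set above the filter differed by -1.18. Cth encodes cystathionine gamma-lyase, which makes cysteine from cystathionine. It fell by 2.99 ± 0.38, from 12.30 to 9.38 and from 12.27 to 9.21 (adjusted p = 0.045).

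Regulators were also among the 15 largest falls. Sox1, a transcription factor of early neural cells, went from 6.53 to 4.07 and from 6.72 to 4.14, ending below the filter (a change of -2.52 ± 0.35). The AP-1 family repressor Jdp2 fell by 2.59 ± 0.29, from 8.61 to 6.42 and from 8.66 to 5.67. Ripply3, a transcriptional corepressor gene, fell by 3.00 ± 0.22 (7.36 to 4.46 and 7.66 to 4.57). Zmat4, Lrrc31, Ak7, Dleu7, Ankrd33b, Patl2, Niban1 and Pla1a fell by 2.53 to 3.30. In all of these genes both untreated samples lay above both treated ones.

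**Figure D2:**
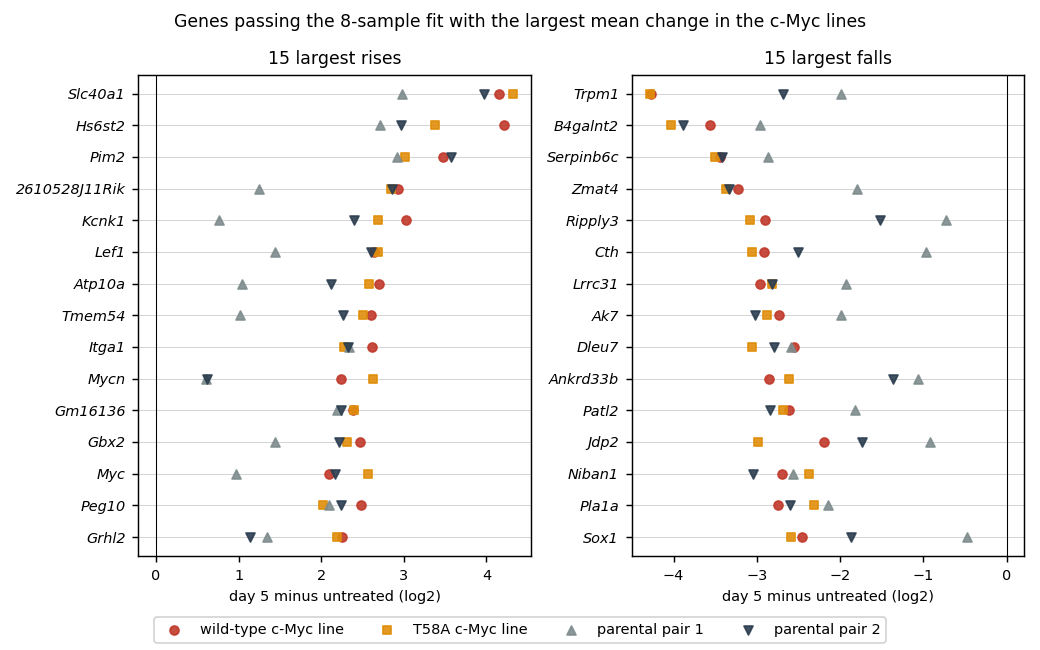
Log2 change at day 5 of LY294002 for the 15 largest rises (left) and the 15 largest falls (right) that passed the 8-sample fit, 1 symbol per pair of arrays. Circles and squares are the wild-type and T58A c-Myc lines and triangles the 2 parental pairs. The c-Myc lines lie close together, and Mycn has changes of 2.24 and 2.62 in them against 0.60 and 0.62 in the parental pairs.

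Both Myc and Mycn RNA rose with LY294002 in the c-Myc lines. Of 16 tested genes of the Myc, Max and Mxd network, 2 rose and none fell in the 8-sample fit, while 4 were called higher and 3 lower in the 4-sample fit (median change 0.11, against 0.04 over all genes). Myc read 7.51 and 6.99 untreated and 9.60 and 9.55 at day 5 in the wild-type and T58A lines. Both treated samples were higher, and Myc rose 5.01-fold (2.33 ± 0.32, adjusted p = 0.049). Mycn, which encodes N-Myc, went from 10.07 to 12.30 and from 9.33 to 11.96, a rise of 2.43 ± 0.14 (adjusted p = 0.031). Of its 3 probe sets 2 rose and 1 differed by -0.07. Max, the obligate partner of both proteins, read 8.47 and 8.49 untreated and 8.66 and 8.71 at day 5 (0.21 ± 0.11, adjusted p = 0.268).

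These probe sets do not check the overexpression. Untreated Myc read 9.30 and 7.43 in the parental pairs, against 7.51 and 6.99 in the c-Myc lines, and whether its 1 probe set detects the introduced cDNA was not given in the sources used here. Untreated Mycn stood at 10.95 and 11.33 in the parental pairs, above both c-Myc lines, and reached 11.55 and 11.95 at day 5. Genes of antagonists in the network did not pass: Mga, a repressor partner of Max, differed by -0.78 (adjusted p = 0.130) and Mxi1 by 0.75 (adjusted p = 0.209).

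Formative and primed epiblast genes, which mark the states that follow naive pluripotency, had the second highest list median. Of 18 tested, 7 rose and none fell, 15 were called higher in the 4-sample fit, and all 18 were above 0 in both lines (median 0.85). The 2 de novo DNA methyltransferase genes were among them. Dnmt3b read 10.44 and 10.56 untreated and 12.40 and 12.22 at day 5, and Dnmt3a read 8.40 and 8.26 untreated and 10.10 and 9.95 at day 5. Treated and untreated samples did not overlap for either gene, and the changes were 1.81 ± 0.15 and 1.70 ± 0.21. The 5 probe sets of Dnmt3a ranged from 0.44 to 1.83. Zic5 rose by 0.84 ± 0.11 and Cdh2, the gene for N-cadherin, by 1.37 ± 0.17, and Pim2, Lef1 and Grhl2, given above, complete the 7. Pou3f1, the gene for Oct6, did not pass (3.08 ± 0.56, adjusted p = 0.064), although it went from 6.33 to 9.94 and from 6.82 to 9.38. Otx2 went from 9.10 to 9.77 and from 8.49 to 9.53 (adjusted p = 0.115). Among 9 tested genes of DNA methylation no other passed, and the demethylating enzyme gene Tet2 differed by -0.78 (adjusted p = 0.054).

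Naive pluripotency genes divided. Of 22 tested, 2 fell and 1 rose, and 13 were called lower and 2 higher in the 4-sample fit (median -0.50). Tcl1, an Akt co-activator, went from 11.30 to 8.86 and from 11.26 to 9.18, a fall of 2.26 ± 0.24 (adjusted p = 0.040). Pecam1, a surface marker of naive cells, went from 7.64 to 6.01 and from 7.50 to 6.35, a fall of 1.39 ± 0.19. Gbx2, a homeobox gene downstream of LIF, went the other way, from 7.21 to 9.68 and from 7.31 to 9.63 (2.39 ± 0.21, adjusted p = 0.039). The treated and untreated samples of all 3 genes stood apart. Tbx3 differed by -2.10, Klf5 by -1.20, Tfcp2l1 by -1.08 and Esrrb by -0.59 without passing (adjusted p = 0.066, 0.053, 0.060 and 0.140). Dppa3, the gene for Stella, went from 5.61 to 9.05 and from 5.14 to 8.74, with an adjusted p of 0.064 and parental changes of 0.82 and 3.50. The core factors differed little: Pou5f1 read 13.00, 12.94, 12.95 and 13.00 and Sox2 12.89, 12.86, 12.93 and 12.85 in the untreated wild-type, untreated T58A, treated wild-type and treated T58A samples. Nanog differed by -0.20 ± 0.12 (adjusted p = 0.321) and Zfp42 by -0.45 ± 0.19 (adjusted p = 0.203).

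**Figure D3:**
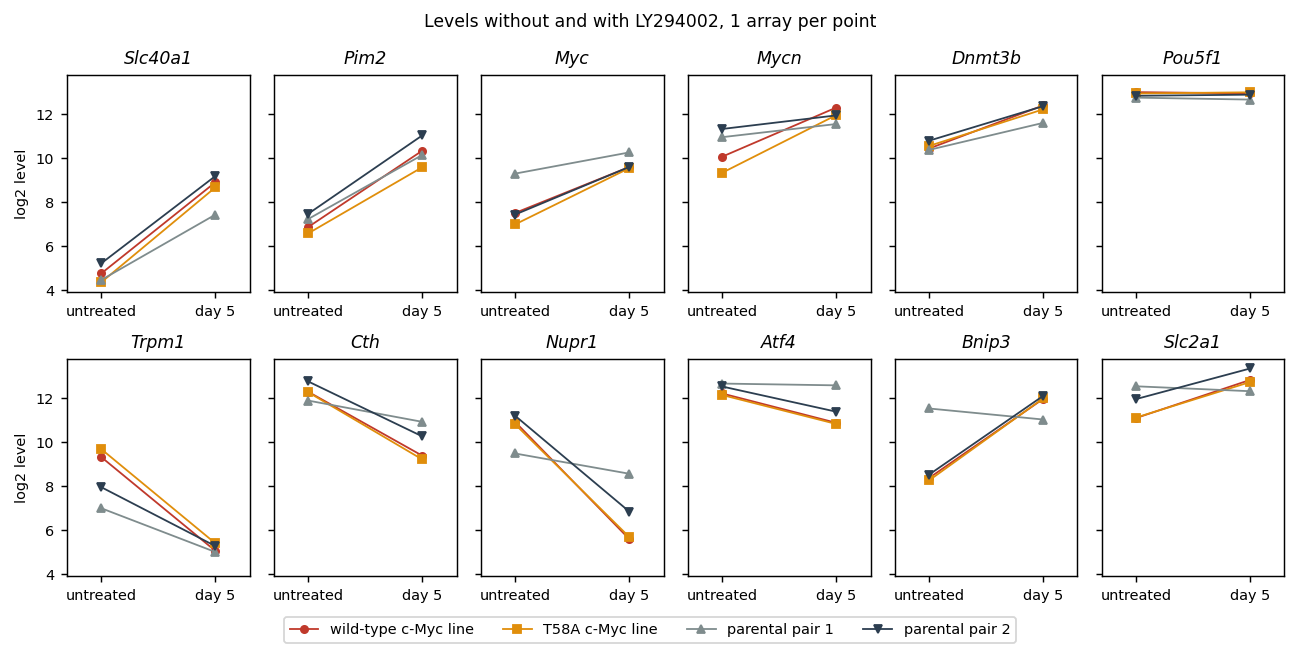
Log2 levels of 12 genes in untreated and LY294002 day 5 samples, 1 array per point, with lines joining the samples of 1 pair. Slc40a1, Pim2, Myc, Mycn and Dnmt3b rise and Trpm1 and Cth fall in both c-Myc lines, Pou5f1 is flat, and Nupr1, Atf4, Bnip3 and Slc2a1 move together in the c-Myc lines and parental pair 2 but little or the other way in parental pair 1.

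The amino acid response was the group with the lowest median change. Its regulators are ATF4, a transcription factor translated under amino acid shortage, and genes that ATF4 is known to act on or with. Of 15 tested, 2 fell and none rose in the 8-sample fit, 14 were called lower in the 4-sample fit, and 12 were at least 2-fold lower in both lines (median -1.52). Atf3, a transcription factor, read 7.25 and 7.26 untreated and 5.32 and 5.19 at day 5, a fall of 2.00 ± 0.21 (adjusted p = 0.040). Ddit4, an inhibitor of mTORC1, read 10.74 and 10.70 untreated and 9.37 and 9.04 at day 5, a fall of 1.52 ± 0.14. The 2 untreated samples lay above the 2 treated ones for both. The median change of the list was -0.17 in parental pair 1 and -1.25 in parental pair 2, and that gap is part of the error of the 8-sample fit.

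The widest difference of any of these genes was at Nupr1, a stress-induced chromatin cofactor (chromosome 7, 126623246 to 126625470). It went from 10.92 to 5.59 and from 10.82 to 5.69, with both treated samples far below both untreated ones (-5.23 ± 0.81). Its adjusted p was 0.054, and it changed by -0.92 and -4.36 in the parental pairs. Atf4 itself went from 12.22 to 10.88 and from 12.15 to 10.83 (adjusted p = 0.074). The pseudokinase gene Trib3 differed by -2.41, the glutathione-degrading enzyme gene Chac1 by -2.41 and Ddit3, the gene for CHOP, by -1.81, with adjusted p of 0.070, 0.073 and 0.072. Stbd1 was the member in the other direction (1.72 ± 0.56, adjusted p = 0.143).

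Enzymes and transporters of amino acids followed. Of 14 tested genes of serine, glycine, proline and one-carbon synthesis, 3 fell and 11 were called lower in the 4-sample fit (median -0.99). The alanine transaminase gene Gpt2 went from 9.69 to 7.71 and from 9.78 to 7.50. Pck2, the mitochondrial form of PEP carboxykinase, went from 10.15 to 8.12 and from 10.14 to 8.35, and the proline synthesis gene Aldh18a1 from 10.60 to 9.17 and from 10.62 to 8.99. All 3 were lower in both treated samples, by 2.13 ± 0.28, 1.91 ± 0.27 and 1.53 ± 0.21. The 4 probe sets of Gpt2 ranged from -2.13 to -0.93. Aldh1l2, of mitochondrial folate metabolism, differed by -3.54 ± 0.56 (adjusted p = 0.055) and Asns, asparagine synthetase, by -0.88 (adjusted p = 0.063).

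Of 14 amino acid transporter genes, 1 fell and 1 rose, with 9 called lower and 2 higher in the 4-sample fit (median -0.53). The glutamate transporter gene Slc1a1 fell by 1.45 ± 0.20 (5.95 to 4.28 and 5.82 to 4.59), and Slc7a7, a transporter of cationic amino acids, rose by 1.28 ± 0.16 (8.74 to 10.01 and 8.51 to 9.79). The 3 probe sets of Slc1a1 ranged from -1.45 to -0.04. Of 13 aminoacyl tRNA synthetase genes none passed, but 12 were called lower in the 4-sample fit (median -0.67), with Cars at -1.07 and Nars at -1.06 (adjusted p = 0.065 and 0.059). Vars was the member not called. In the methionine and transsulfuration list of 11, Cth was the gene that fell, and 5 were called higher in the 4-sample fit, among them Ahcy (0.95, adjusted p = 0.124).

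**Figure D4:**
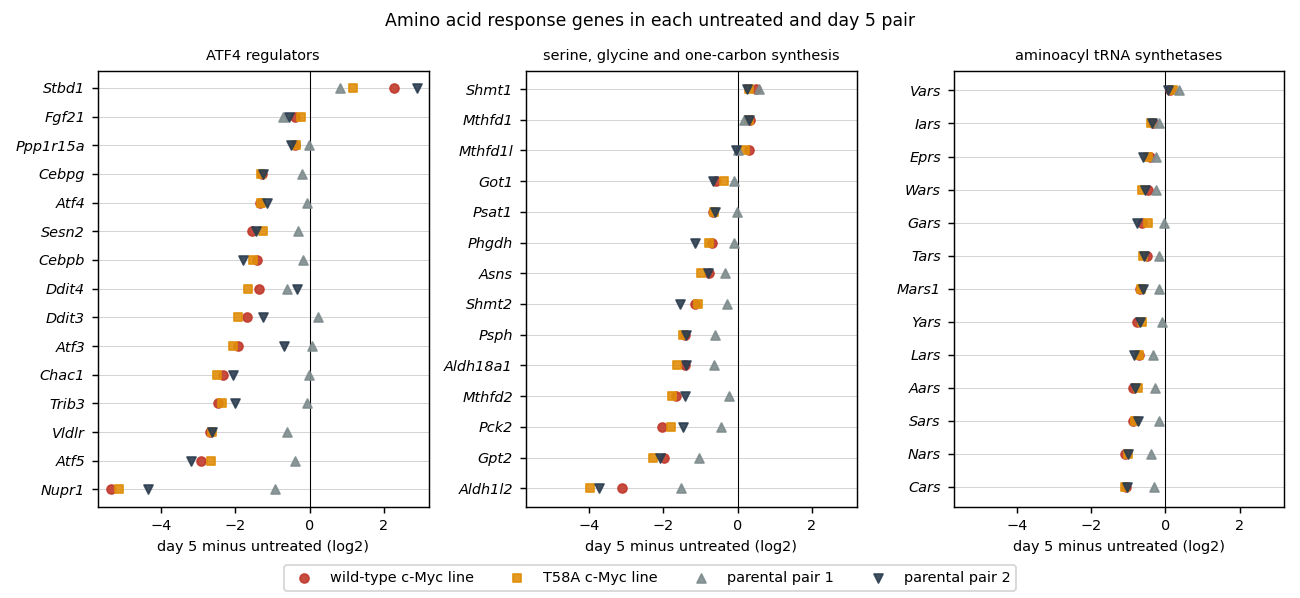
Log2 change at day 5 of LY294002 of the tested ATF4 regulators (left), serine, glycine and one-carbon genes (middle) and aminoacyl tRNA synthetases (right), 1 symbol per pair of arrays. The c-Myc lines and parental pair 2 lie together to the left of 0 for most genes, while parental pair 1 lies near 0, so its list medians are -0.17, -0.25 and -0.18.

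ATF4 is known to bind a composite element with C/EBP partners, and its core letters TGATGCA were searched on both strands (the other strand reads TGCATCA) in the RefSeq promoter windows, 250 bases before to 50 after each start, in GRCm38.p6. Of all 32851 windows 3.15% held the core, and of the 13711 windows of tested genes 2.12%. It was found in 5 of 17 windows of the ATF4 regulators (29.4%), 4 of 8 of the tRNA synthetases, 4 of 19 of the transporters (21.1%) and 1 of 14 of the serine and one-carbon genes (7.14%). Among windows of the genes that fell the share was 3.38%, and among those that rose 2.6%. By the 4-sample fit it was 2.43% for genes called lower and 2.02% for those called higher. The ATF4 regulators were listed as genes that ATF4 is known to act on or with. Their share is therefore partly set by that choice and does not bear on the response to LY294002. A match is a description of letters, not a bound site. The stretches below show the match, in capitals, with 20 bases on either side. They are of some genes named in this section and of Aars, the alanyl tRNA synthetase gene. They are written 5′ to 3′ on the strand of the gene: Nupr1 at chr7:126625553-126625599 (minus strand), Atf3 at chr1:191183416-191183462 (minus), Chac1 at chr2:119351030-119351076 (plus), Vldlr at chr19:27216801-27216847 (plus), Aars at chr8:111033711-111033757 (plus) and Jdp2 at chr12:85599363-85599409 (plus).
Nupr1: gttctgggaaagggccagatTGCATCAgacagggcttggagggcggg
Atf3: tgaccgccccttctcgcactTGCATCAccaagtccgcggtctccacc
Chac1: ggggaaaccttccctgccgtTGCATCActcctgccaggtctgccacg
Vldlr: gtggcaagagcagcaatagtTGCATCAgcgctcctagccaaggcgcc
Aars: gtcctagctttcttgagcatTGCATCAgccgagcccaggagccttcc
Jdp2: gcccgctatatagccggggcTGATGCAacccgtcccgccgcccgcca
Jdp2 carries the core as written and the others carry it in reverse orientation. All the stretches shown are of genes that were lower at day 5. Adgrl2 and Fancl, which rose by 2.21 and 0.77, carry the core as well and are not shown. Vldlr, a lipoprotein receptor gene, differed by -2.66 ± 0.48 (adjusted p = 0.064) and Aars by -0.80 (adjusted p = 0.078).

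Genes of glycolysis stood above 0 in both lines in 15 of 18 cases without passing the 8-sample fit. None passed, and 14 were called higher and 2 lower in the 4-sample fit (median 1.01, the highest of the lists). The median was -0.19 in parental pair 1 and 1.31 in parental pair 2. Pfkl, a phosphofructokinase gene, went from 7.57 to 10.06 and from 7.70 to 9.99, and Slc2a1, the gene of the glucose transporter GLUT1, from 11.10 to 12.84 and from 11.12 to 12.74. Tpi1 went from 10.39 to 12.27 and from 10.61 to 12.29. The treated samples were higher in all 3, with changes of 2.39 ± 0.67, 1.68 ± 0.39 and 1.78 ± 0.60 (adjusted p = 0.115, 0.091 and 0.149).

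Hypoxia-response genes share regulators with glycolysis. Of 19 tested, 1 fell and none rose, and 12 were called higher and 2 lower in the 4-sample fit (median 0.68). Vegfa, the vascular growth factor gene, was the one that fell, from 7.74 to 6.27 and from 7.59 to 6.47 (-1.29 ± 0.16, adjusted p = 0.043). Its other probe set differed by -0.22. The mitophagy gene Bnip3 went the other way, from 8.37 to 11.97 and from 8.26 to 12.00 (3.67 ± 0.96, adjusted p = 0.104). Bnip3 changed by 3.59 in parental pair 2, but by -0.50 in parental pair 1, whose untreated sample already stood at 11.53.

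Lipid synthesis genes had the same form of result. None of 30 cholesterol and fatty acid genes passed, 22 were called higher and 1 lower in the 4-sample fit, and 27 were above 0 in both lines (median 0.53, against -0.12 and 0.53 in the parental pairs). Sqle, squalene epoxidase, went from 9.10 to 10.10 and from 9.02 to 10.02 (1.00 ± 0.15, adjusted p = 0.054). Fdps, which makes farnesyl diphosphate, differed by 1.25 ± 0.22 (adjusted p = 0.063) and the sensor gene Insig1 by 0.62 ± 0.12 (adjusted p = 0.067). By contrast, 33 genes of oxidative phosphorylation and the TCA cycle had a median of 0.04, with none passing and 5 called higher and 4 lower. Among 17 Nrf2 and glutathione genes none passed. In the 4-sample fit 2 were called higher and 6 lower, beside 23.4% and 17.7% of all genes. The transcription factor gene Nfe2l2 differed by -0.68 (adjusted p = 0.067).

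Of 21 p53 targets and CDK inhibitors, 4 fell and 1 rose, and 12 were called lower and 4 higher in the 4-sample fit (median -0.54). Cdkn1a, which encodes p21, read 9.05 and 9.19 untreated and 7.50 and 7.42 at day 5 (-1.66 ± 0.15, adjusted p = 0.039). Plk2 went from 9.78 to 7.71 and from 9.73 to 7.68, and the antiproliferative gene Btg2 from 8.46 to 7.39 and from 8.53 to 7.28. Both untreated samples were above both treated ones in these genes and in Ddit4, given above. Cdkn1a was the only CDK inhibitor gene to fall in the 8-sample fit. Cdkn2a differed by 0.71 and Cdkn1c by 0.57, both called higher in the 4-sample fit. Cdkn2c differed by -0.36 and was called lower in that fit, and Cdkn2b and Cdkn1b differed by 0.05 and -0.08. Mdm2, the ubiquitin ligase of p53, differed by -1.20 (adjusted p = 0.054). Pmaip1, the pro-apoptotic Noxa gene, rose by 1.49 ± 0.15, from 8.88 to 10.23 and from 8.75 to 10.37.

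Of 29 replication and mitosis genes 1 rose, the cyclin gene Ccne2 (7.23 to 8.35 and 7.23 to 8.44, adjusted p = 0.039), and 10 were called higher and none lower in the 4-sample fit (median 0.14). None of 39 ribosome biogenesis and Myc target genes passed, which at 2.62% over all genes is near the background. Of these, 11 were called higher and 4 lower in the 4-sample fit, and their median of 0.08 stood beside 0.04 for all genes. Members lay on both sides, with Odc1, a classic Myc target of polyamine synthesis, at 0.55 (adjusted p = 0.097) and the nucleolar gene Nop58 at -0.60 (adjusted p = 0.177).

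Of 18 components of the PI3K and Akt pathway 2 passed, beside 2.62% of all genes: Eras rose and Tcl1 fell. In the list 3 were called higher and 6 lower in the 4-sample fit (median -0.19). Eras, an ESC-specific Ras gene whose product activates PI3K, went from 10.46 to 11.48 and from 10.42 to 11.51 (1.06 ± 0.13, adjusted p = 0.042), and its changes in the parental pairs were 0.06 and 0.35. Of 22 FOXO targets and feedback genes 1 rose, and 9 were called higher and 4 lower (median 0.24). That gene was Bcl2l11, the pro-apoptotic Bim gene, which read 8.81 and 8.71 untreated and 9.93 and 9.85 at day 5 (1.13 ± 0.15, adjusted p = 0.049). The insulin receptor substrate genes Irs1 and Irs2 differed by 0.85 ± 0.12 and 0.97 ± 0.17 (adjusted p = 0.052 and 0.062). Of 16 Pim and Bcl2 family genes, Pim2, Pmaip1 and Bcl2l11 rose and none fell. Pim1 differed by 0.84 ± 0.15 (adjusted p = 0.064) and Hrk, a pro-apoptotic gene, by -1.69 ± 0.34 (adjusted p = 0.073).

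ERK feedback and immediate-early genes leaned upward: of 19 tested 1 rose, Myc, beside 1.09% of all genes. In the 4-sample fit 12 were called higher, beside 23.4% of all genes, and none lower, beside 17.7% (median 0.48). The feedback inhibitors Spry1, Spry2 and Spred1 differed by 1.03, 0.60 and 0.85 (adjusted p = 0.063, 0.063 and 0.057). Of 14 Wnt genes, Lef1 rose and the Wnt antagonist gene Sfrp1 fell by 1.13 ± 0.11 (8.52 to 7.36 and 8.79 to 7.70), with its 5 probe sets from -1.95 to -0.68. Axin2, a feedback target, differed by 0.64 (adjusted p = 0.082). Of 15 LIF and Stat3 genes 1 rose, Gbx2, and Stat3 differed by -0.75 ± 0.12 (adjusted p = 0.057).

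Of 11 Hedgehog genes tested 2 fell, Gli1 and Gli2, transcription factors of the pathway, with 4 called higher and 4 lower in the 4-sample fit. Gli1, also a target of the pathway, went from 8.24 to 5.97 and from 7.89 to 5.76 (-2.20 ± 0.21), and Gli2 from 10.95 to 9.26 and from 10.82 to 9.38 (-1.56 ± 0.16). Hhip, which binds Hedgehog ligands, ended below the level filter, from 7.67 to 3.91 and from 7.29 to 3.90, with an adjusted p of 0.072. Gli3 differed by 0.65 (adjusted p = 0.089). Of 15 Nodal and 15 BMP genes none passed, with Inhbb at -1.52 ± 0.26 and Id4 at -1.13 ± 0.19 as the largest differences (adjusted p = 0.061 and 0.060).

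Of 26 adhesion genes tested 6 rose and none fell. They were Itga1, Cdh2, Cldn6, Esrp1, Epcam and Efnb2, and 13 were called higher and 5 lower in the 4-sample fit (median 0.23). Cldn6, a tight junction claudin gene, went from 6.55 to 8.81 and from 6.13 to 8.32 (2.22 ± 0.27). The epithelial splicing regulator gene Esrp1 went from 7.59 to 9.58 and from 7.11 to 9.23 (2.05 ± 0.20), and Epcam from 10.95 to 12.18 and from 10.62 to 12.01 (1.31 ± 0.14). Treated samples were above untreated samples in all of them. Cdh1, the E-cadherin gene, differed by 0.89 ± 0.14 (adjusted p = 0.054), and Vim and Zeb1, genes of mesenchymal cells, by -0.64 and -1.23 (adjusted p = 0.073 and 0.138). Of the cadherin pair, N-cadherin thus passed and E-cadherin did not, and both were above 0 in each line.

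Genes of the basement membrane went apart. Of 13 tested 2 fell, Serpinh1, a collagen chaperone gene (9.23 to 6.83 and 8.91 to 6.63, -2.34 ± 0.18), and the nidogen gene Nid1 (9.68 to 8.54 and 9.74 to 8.53, -1.17 ± 0.14). The laminin gene Lama1 differed by -1.43 and Lamb1 by 1.31 (adjusted p = 0.064 and 0.061). Hs6st2 was the only one of 21 heparan sulfate genes to pass in the 8-sample fit. In the 4-sample fit 7 were called higher and 4 lower, beside 23.4% and 17.7% of all genes. In iron handling Slc40a1 was likewise the only one of 11 to pass, and the transferrin receptor gene Tfrc differed by 0.46 (adjusted p = 0.117).

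Of 26 lysosome and autophagy genes 1 fell (list median -0.35), and 14 were called lower and 3 higher in the 4-sample fit. Hexa, a hexosaminidase subunit gene, read 12.10 and 11.94 untreated and 10.44 and 10.49 at day 5 (-1.55 ± 0.21, adjusted p = 0.049). Tfeb and Tfe3, related regulators of lysosome genes, stood on opposite sides at -0.92 ± 0.13 and 0.84 ± 0.14 (adjusted p = 0.051 and 0.060). None of 20 endoplasmic reticulum chaperone genes passed, with Herpud1 at -2.25 ± 0.49 (adjusted p = 0.083) and a list median of -0.19. None of 16 interferon-response genes passed. Among these Bst2 differed by 1.57 and B2m, the light chain of MHC class I, by -1.26 (adjusted p = 0.058 and 0.053).

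**Figure D5:**
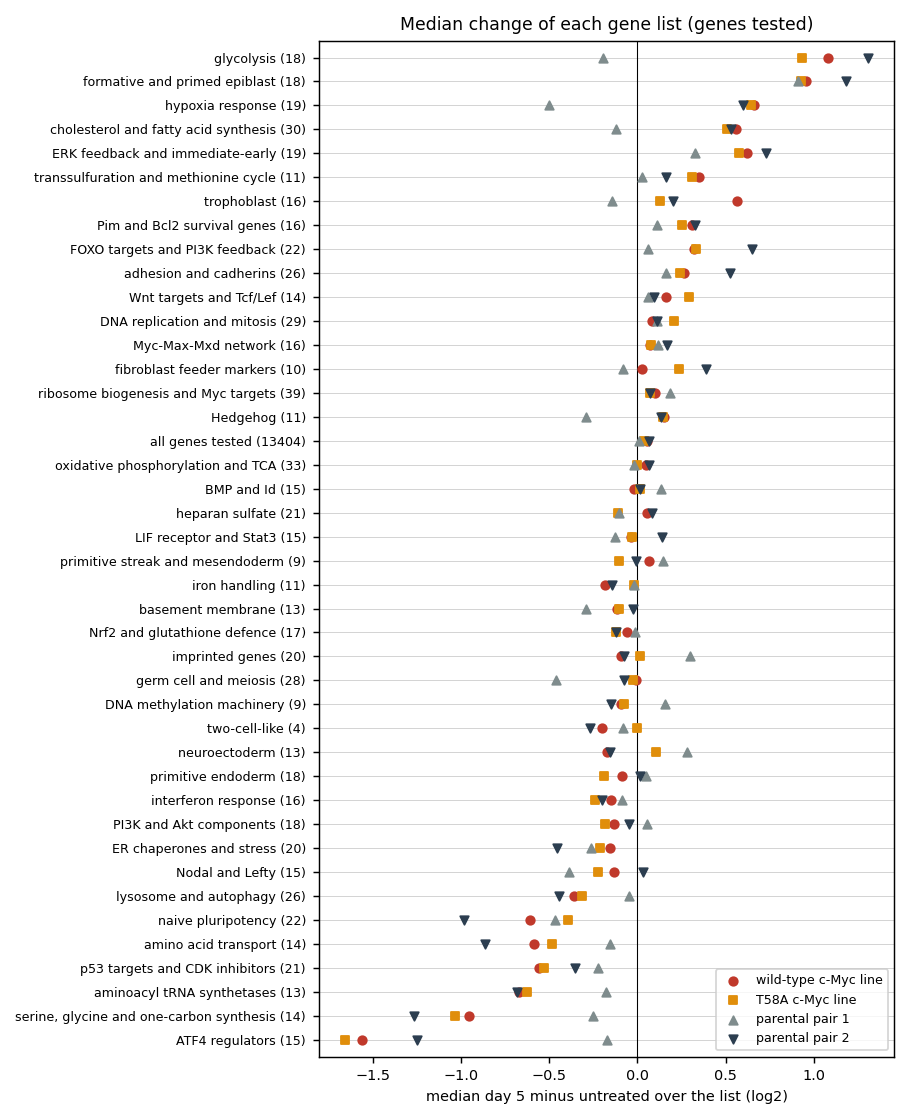
Median log2 change at day 5 of LY294002 over each gene list, with the number of genes tested in parentheses, 1 symbol per pair of arrays. The c-Myc lines lie close together, from about 1.0 for glycolysis to -1.56 and -1.66 for ATF4 regulators, while parental pair 1 lies near or across 0 for glycolysis, hypoxia, lipid synthesis and the amino acid lists.

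Of 13 neuroectoderm genes 3 passed, beside 2.62% of all genes. Sox1 fell and Gbx2 and Sox11 rose, Sox11 from 7.78 to 9.85 and from 7.78 to 9.66 (1.97 ± 0.25, adjusted p = 0.045). Tubb3, a neuronal tubulin gene among the neuroectoderm markers, read 7.73 and 7.93 untreated and 6.89 and 6.75 at day 5. The marker Nes went the other way, from 6.76 to 7.36 and from 6.71 to 7.12. Pax6 differed between the lines, from 6.74 to 5.84 in the wild-type line and from 6.02 to 6.13 in the T58A line. None of 18 primitive endoderm, 16 trophoblast and 9 primitive streak genes passed. The keratin gene Krt18 read 6.00 and 5.88 untreated and 8.59 and 7.99 at day 5, with changes of 0.37 and 4.21 in the parental pairs (adjusted p = 0.185). None of 10 feeder cell markers passed, with Tagln going from 5.13 to 6.93 and from 4.79 to 6.44 (adjusted p = 0.225).

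Germ cell and imprinted genes held single strong responders. Of 28 germ cell and meiosis genes 2 fell: Sycp3, of the meiotic chromosome axis, went from 11.01 to 9.01 and from 10.89 to 8.74 (-2.08 ± 0.12, adjusted p = 0.031), and Prdm1, the Blimp1 gene, from 7.79 to 6.74 and from 7.48 to 6.39. The list had 6 called higher and 7 lower in the 4-sample fit, beside 23.4% and 17.7% of all genes, and a median of -0.07. Of 20 imprinted genes, Peg10 and Sgce, neighbours in 1 imprinted cluster, rose, and Grb10 and Phlda2, both growth-restraining and maternally expressed in many tissues, fell. Sgce went from 6.84 to 7.85 and from 6.26 to 7.79, Grb10 from 12.01 to 10.20 and from 11.95 to 10.00, and Phlda2 from 11.52 to 9.79 and from 11.61 to 9.90. In each the treated and untreated samples were apart. Of 4 tested genes of the 2-cell-like list none passed.

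The wild-type and T58A lines had 1 pair each, so their difference had no replicate check and was not tested. A total of 311 genes passed 2-fold in the wild-type line only and 127 in the T58A line only, with the rest of each line's set shared. Gbp2, an interferon-induced GTPase gene, went from 2.64 to 7.38 in the wild-type line and from 2.92 to 5.78 in the T58A line. Limch1 went from 4.35 to 6.12 and from 5.65 to 6.05, so its gap lay in the untreated samples, and Sema3c, a guidance cue gene, from 3.35 to 5.13 and from 3.47 to 4.08. Msrb3 differed by 0.66 in the wild-type line and by -0.48 in the T58A line. In the other direction, Ttn, the titin gene, went from 7.17 to 3.67 in the wild-type line and from 6.28 to 3.89 in the T58A line, although 1 of its 3 probe sets above the level filter moved the other way. Mfsd2b, Tmem156 and Insyn2b, none of which passed, had more negative differences in the wild-type line, each from a higher untreated level there.

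Whether c-Myc altered the response was tested as the c-Myc change minus the parental change in the 8-sample fit. None of 13404 genes passed with limma (0.0%), and the smallest adjusted p was 0.996. At an unadjusted p below 0.05 there were 457, of which 285 had the higher change in the c-Myc lines and 172 the lower. The values below are therefore descriptions. The gene with the smallest p among those higher was Ptger2, a prostaglandin receptor gene, which read 3.91 and 3.70 untreated and 5.49 and 5.40 at day 5 in the c-Myc lines, and went from 4.86 to 4.67 and from 4.37 to 4.36 in the parental pairs. It was lower in the untreated c-Myc lines than in the untreated parental samples and higher at day 5. Tnfsf11, the RANK ligand gene, rose from 3.29 and 3.29, below the filter too, to 5.06 and 4.95, with parental changes of 0.32 and 0.54. Mycn changed by 2.43 against 0.60 and 0.62. Its untreated levels, given above, were lower in both c-Myc lines than in both parental pairs, and 1 of its 3 probe sets differed by -0.07. The changes of Trpm1, Ripply3 and Ankrd33b minus those in parental cells were -1.94, -1.87 and -1.51, and untreated Trpm1 stood at 7.00 and 7.95 in the parental pairs against 9.32 and 9.69. Sox3, an epiblast and neural gene, changed by 0.49 in the c-Myc lines and by 1.45 and 1.59 in the parental pairs. Pof1b and Nudt12, also among the 5 smallest p of those higher, differed by only -0.08 and -0.02 in the c-Myc lines, at levels below the filter. In the parental pairs Pof1b changed by -1.37 and -1.44 and Nudt12 by -1.17 and -1.37. When a parental pair was left out, the outcome turned on which was kept: genes passed with pair 1 alone and not with pair 2 alone. Each such fit had 1 parental array per condition, and pair 1 appears to come from a separate normalization run. With pair 1 alone, a difference between cells and one between runs cannot be told apart.

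The E-box CACGTG, the preferred element of Myc and Max, was searched in the same windows. It reads the same on both strands and was found in 7.15% of all windows and 9.74% of those of tested genes, 7.14% of those of genes that rose and 5.31% of those that fell. By the 4-sample fit the shares were 9.09% for genes called higher and 11.0% for those called lower. The forkhead core GTAAACA of FOXO factors (TGTTTAC on the other strand) was found in 3.65% of all windows, 2.71% of those of tested genes, 2.6% of those that rose and 2.9% of those that fell. The stretches below show matches near genes that carry the results, with the match in capitals, 5′ to 3′ on the strand of the gene: E-boxes of Gbx2 at chr1:89931225-89931270 (minus strand), Dnmt3a at chr12:3891644-3891689 (plus) and Aldh18a1 at chr19:40588497-40588542 (minus), and the forkhead core of Bcl2l11, the Bim gene, at chr2:128125791-128125837 (plus).
Gbx2: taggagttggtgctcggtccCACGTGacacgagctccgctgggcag
Dnmt3a: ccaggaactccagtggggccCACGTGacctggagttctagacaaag
Aldh18a1: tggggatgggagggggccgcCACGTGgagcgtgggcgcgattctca
Bcl2l11: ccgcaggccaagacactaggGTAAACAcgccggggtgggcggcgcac
Gbx2, Dnmt3a and Bcl2l11 rose and Aldh18a1 fell. The forkhead core also lay before the start of Ak7, As3mt, Scrn3 and Trim63, which fell, and of Kctd15, Lsm6 and Sox12, which rose. The shares were not tested against each other.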

How the data were processed

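RNA of the 18 samples was measured on 18 Affymetrix arrays as biotin-labelled cRNA, per the labels' protocols. The deposited table holds log2 values per probe set that the authors computed by RMA with affy, per the submitters' processing notes, with versions and settings not given in the sources used here. Of 45101 probe sets 64 were controls, and 34945 named 1 gene, 932 several and 9160 none in the platform annotation. By gene identifier 34741 matched RefSeq. A gene's value (18193 genes) was that of its brightest probe set by the mean of all 18 arrays, and 9010 genes had several to choose from. To be tested, a gene had to exceed 4.64, the 40th percentile, in at least 2 of the 8 serum samples.

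The 8 samples were fitted by lmFit and eBayes of limma 3.58.1 in R 4.3.3. Pairs were blocks, which left 2 residual degrees of freedom. The 2-sided p-values were adjusted by Benjamini-Hochberg across all 13404 genes, at a threshold of 0.05. The scripts were tested on simulated data. Pairs follow the descriptions, which name the reference sample of each treated one. The gap between the untreated samples of the 2 c-Myc lines correlated over genes with that between their day 5 samples at r = 0.172, and 0.563 for the parental pairs. Lists were described by counts and medians, with no set test. Promoter windows came from RefSeq (GRCm38.p6).

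Named genes were the 15 largest rises and falls that passed, each list's members that passed (at most 8) or else the 4 with the smallest p, the 5 smallest p in each direction of the difference from parental cells, the 4 largest gaps between lines each way, and Myc, Mycn, Max, Pou5f1, Sox2, Nanog, Zfp42 and Esrrb. Any other gene named was chosen after its values were seen. The samples and lists were chosen with earlier results of these data known.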

Additional observations from a re-analysis of the deposited data

Results flagged for a closer look

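In 4 of the genes named by rule both c-Myc lines moved one way and both parental pairs the other, which 686 of the 13404 tested genes did (5.12%). The c-Myc change minus the parental change was 1.74 for Ptger2, 0.97 for Tfap2c, a transcription factor of trophoblast and germ cells, -1.38 for the histone gene H2aw and -0.87 for Fst, the gene of the activin inhibitor follistatin. In the line order wild-type, then T58A, Ptger2 changed by 1.59 and 1.70, and it changed by -0.19 and -0.01 in the parental pairs. Its untreated values in the c-Myc lines lay below the level filter. Tfap2c changed by 0.66 and 0.56 against -0.23 and -0.49, H2aw by -1.19 and -0.86 against 0.39 and 0.32, and Fst by -0.47 and -0.80 against 0.44 and 0.03. In limma's test of the difference each of the 4 had an adjusted p of 0.996.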

How the results depend on the processing

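The number of genes that passed turned on which samples set the spread. Beside 351 in the 8-sample fit with the replicate block, it was 44 with no replicate block, 5505 in the c-Myc lines only with the replicate block, 5365 there without it, and 1815 at a threshold of 0.1. A stricter filter, the 60th percentile, gave 533, and a prior with trend and robustness gave 536. Leaving out 1 pair gave 0 to 5505: 0 when either c-Myc line was dropped, where the lone line was assumed to vary like the parental pairs, and 5505 without either parental pair, since the remaining one then adds no residual degree of freedom. The count was 396 with no filter, 366 after quantile normalization and 284 with the mean of all probe sets. Centring the arrays gave 406, with 208 higher and 198 lower against 146 and 205. The difference from parental cells gave 0 to 1238 genes when a pair was left out and 0 under every other setting run. Of 67 named genes that passed for the c-Myc lines, 42 no longer passed with no replicate block, 67 without either c-Myc line and 13 with the mean of probe sets, and 0 changed sign. Signs turned in genes that had not passed. Bop1 became -0.0747 with the mean of probe sets, Pou5f1 became 0.0412 after centring and Sox2 became -0.0085 after quantile normalization. Leaving out 1 pair gave -0.0936 to 0.3351 for Zfp352, -0.0665 to 0.2318 for S100a4, -0.4835 to 0.6603 for Msrb3, -0.0594 to 0.0527 for Pou5f1 and -0.0086 to 0.0408 for Sox2. The medians of the BMP and heparan sulfate lists changed sign under both scalings and that of the LIF and primitive streak lists after centring. Probe sets of 1 gene above the filter also ranged by over 1.5 times in Ankrd33b (-2.73 to -1.32), Grb10 (-2.09 to -1.17), Sox11 (1.23 to 2.42) and Inhbb (-1.52 to -0.28). Such ranges were also found in Odc1 (0.45 to 1.25), Nfe2l2 (-0.68 to -0.16) and Id4 (-1.61 to -0.75). Fst (-1.32 to -0.63), Cars (-1.07 to -0.53) and Esrrb (-0.59 to -0.29) had them too, among other genes. Causes beyond these constructions were not tested. With 1 array per line and condition and 1 or 2 residual degrees of freedom, small changes cannot be told from the spread.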
